A study of Mus musculus with 4 samples.

Results

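The 8 genes described here are lens fiber differentiation genes: Bfsp1 and Bfsp2 of the beaded filament, Dnase2b of nuclear DNA breakdown, and Birc7, Grifin, Lgsn, Lctl and Tdrd7. They were chosen by name, and each had 1 probe set annotated to it alone, so that all 8 were measured, among 19938 genes that have such a probe set. Lens epithelia of UVB-irradiated right eyes were compared with lens epithelia of left eyes of the same mice, which were covered with aluminum foil. The mice were 8-week-old C57BL/6 males that all received the same anesthesia, and their lenses were taken 24 h after irradiation with 30 mJ/cm2. There were 2 independent experiments with 1 array per condition in each, and the methods give 3 mice for the animal experiments without saying how these were divided over the arrays. No genetic change is named for either group. Cortex and nucleus, which hold most fiber cells, were dissected away before RNA was extracted.

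Fiber cells form at the lens equator from epithelial cells that leave the cell cycle and elongate. They build a cytoskeleton of beaded filaments, fill with crystallins and then remove nuclei, mitochondria and endoplasmic reticulum, which leaves the light path clear. The beaded filament is an intermediate filament found in the lens, made of filensin (Bfsp1) and phakinin (Bfsp2) and decorated by α-crystallins. Dnase2b encodes an acid nuclease of fiber cell lysosomes, and in mice without it the DNA of fiber nuclei persists and cataract forms.

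The fiber genes had strong signals in these epithelial samples. Their log2 signals lay between 10.95 and 13.47, and all 8 were above the 75th percentile of every array (8.82 to 8.85). Bfsp1, Grifin and Lgsn were above the 99th percentile (12.73 to 12.75) on all 4 arrays. Of 12 listed lens epithelium markers, all 12 were measured and lay above the median of both control arrays, and so did all 11 measured lens fiber markers of 12 listed. Epithelial and fiber markers were thus both measured in these samples. Fewer cells of a type and less RNA per cell cannot be told apart in such samples. A signal depends on the probes of its gene, so levels are compared between arrays and not between genes.

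After UVB, 7 of the 8 fiber genes had lower signals in both experiments, and Grifin had higher signals in both. Birc7 had the largest difference, followed by Dnase2b, whereas Bfsp2, Bfsp1, Lgsn, Lctl and Tdrd7 were at 94.6% to 96.3% of control. The median log2 fold change of the 8 genes was −0.065, against −0.02 over all 28944 probe sets. In all, 37.4% of the probe sets were lower in both experiments, with no overlap between UVB and control arrays, and 24% were higher in both. The lack of overlap is no separate observation, because the summed signal of UVB and control was equal in both experiments within 0.02. A probe set lower or higher in both experiments then has separate groups, up to this rounding. Among the probe sets above the median signal, where all 8 genes lay, 40.7% were lower in both. Birc7, Dnase2b, Bfsp2, Lgsn and Lctl, 5 of the 8, were lower by 0.05 or more in both experiments, against 23.2% of all probe sets. With quantile normalization or with equal 75th percentiles of the arrays 6 of the 8 were lower in both experiments, since the difference of Tdrd7 in experiment 1 then was 0 or 0.01. After arrays were centred on their medians, Grifin was at −0.02 in experiment 1 and 0.03 in experiment 2.

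**Figure D1:**
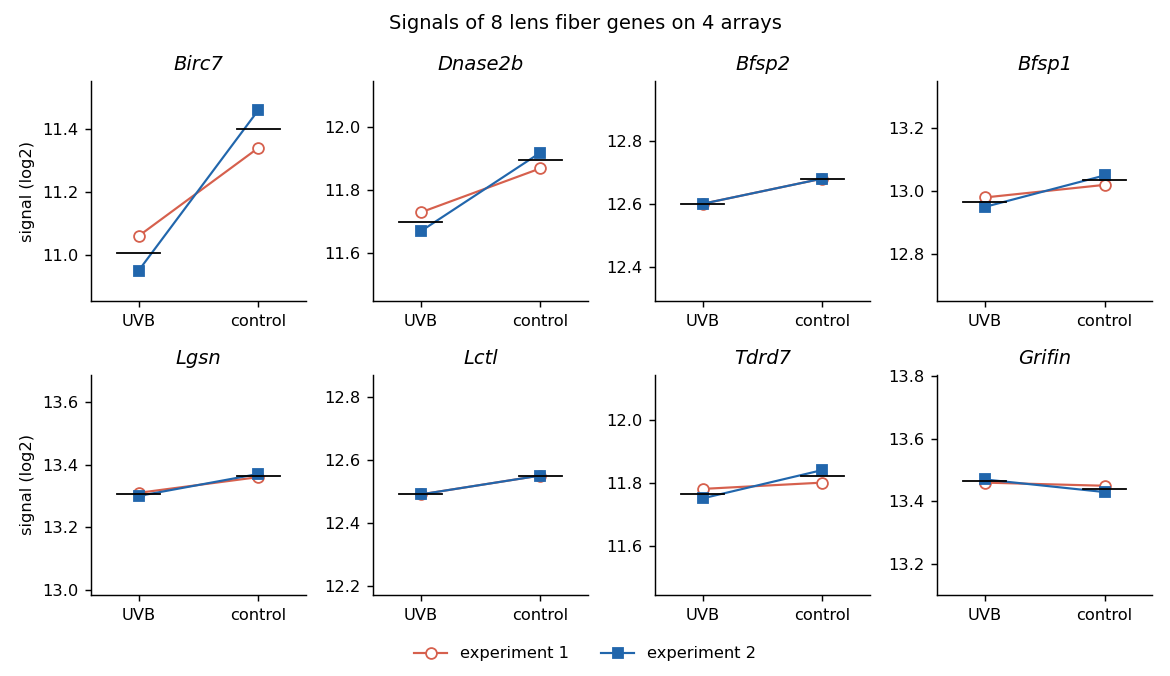
Log2 signal of each of the 8 fiber genes in UVB and control lens epithelia. Lines join the arrays of an experiment (open circles experiment 1, filled squares experiment 2), short bars are group means, every panel spans 0.7 on the log2 scale, and the Birc7 signals of 11.06 and 10.95 after UVB lie below those of 11.34 and 11.46 in control.

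None of the 8 genes was called by limma, a linear model with a shared estimate of the spread, in which the experiment was the block and p-values were adjusted over all probe sets. At an adjusted p of 0.05 this fit called 0 of 28944 probe sets in either direction (0%), and 3878 had an unadjusted p under 0.05. On simulated arrays of the same design, in which few probe sets were changed, the fit called none of the changes put in at this adjusted threshold. Such calls depend on the number of changes, which is not known for the measured arrays. The count of 0 does not show that signals were unchanged. Of the 8 genes, 2 had an unadjusted p under 0.05 as lower, Birc7 and Dnase2b, against 7.71% of all probe sets as lower, and 0 as higher, against 5.69%. The thresholds used in the study, 1.8-fold and an unadjusted p of 0.01, were passed by 18 probe sets as higher (0.0622%), by 0 as lower and by none of the 8 genes. In the fit without the block, an adjusted p of 0.05 was passed by 6.62% of the probe sets as higher and by 11% as lower, among them Bfsp2 and Lctl. Without the block the thresholds of the study were passed by 0.111% as higher and by none of the 8 genes, and an unadjusted p of 0.05 by 14.4% as higher and 23.6% as lower, among them 6 of the 8 genes. The smallest p that an exact two-sided permutation test of 1 gene can give is 0.5 when labels are exchanged within experiments, and 0.333 when the pairing is ignored.

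Birc7 encodes livin, an inhibitor of apoptosis protein that in human tumor cells binds caspases. Its log2 signals were 11.06 and 10.95 in UVB-irradiated epithelia of experiments 1 and 2, against 11.34 and 11.46 in control epithelia. The groups did not overlap, which follows here from the lower signals in both experiments. UVB epithelia had 82.4% of the control signal in experiment 1 and 70.2% in experiment 2. The mean was 11.0 ± 0.078 after UVB and 11.4 ± 0.085 in control (SD, n = 2 each). Because the summed signal was equal in both experiments within 0.02, these SDs hold only the gap between the 2 differences. They do not measure the spread of independent arrays. The log2 fold change was −0.395 (standard error 0.083, 95% interval −0.72 to −0.066, limma's unadjusted p 0.0345 and adjusted p 0.357). A difference this low or lower was seen in 0.428% of all probe sets.

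The other members of the inhibitor of apoptosis family had log2 fold changes between −0.135 and 0.14, smaller in size than that of Birc7. Of 11 listed genes of the family and its antagonists, 10 were measured, and 3 were lower and 3 higher in both experiments (median log2 fold change −0.01). Naip2, a sensor of bacterial ligands in mice, had one of −0.135, and Birc5, survivin, which acts in cell division, one of −0.12. Xiap, which inhibits caspases directly, had log2 signals of 8.49 and 8.48 after UVB against 8.46 and 8.48 in control.

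Dnase2b had log2 signals of 11.73 and 11.67 in UVB-irradiated epithelia, against 11.87 and 11.92 in control epithelia. Both UVB arrays were below both control arrays, at 90.8% of the control signal in experiment 1 and 84.1% in experiment 2. The log2 fold change was −0.195 (standard error 0.046, 95% interval −0.38 to −0.011, limma's unadjusted p 0.0445 and adjusted p 0.357). Of all probe sets, 5.58% had a log2 fold change this low or lower.

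The other nucleases had log2 fold changes between −0.185 and 0.06. Trex1, an exonuclease that clears DNA from the cytosol, had log2 signals of 7.95 and 7.90 after UVB against 8.09 and 8.13 in control, and a log2 fold change of −0.185 (limma's unadjusted p 0.0388, adjusted p 0.357). Dnase2a, the lysosomal nuclease of macrophages and most other cells, had one of −0.065. Of 12 listed genes of nucleases and their regulation, 5 were lower in both experiments and 1, Dnase1l2, was higher (median −0.0425).

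Of 17 listed genes that clear fiber cells of nuclei and organelles, 16 were measured, of which 8 were lower and 2 higher in both experiments (median −0.0825), and 0 were called at an adjusted p of 0.05. Plaat3, a phospholipase that in mouse and zebrafish lenses breaks down organelle membranes, had log2 signals of 10.42 and 10.36 after UVB against 10.60 and 10.66 in control (log2 fold change −0.24, limma's unadjusted p 0.0329, adjusted p 0.357). Bnip3, a receptor for the removal of mitochondria, had a log2 fold change of −0.15, and its relative Bnip3l one of 0.01. Hsf4, a heat shock factor that in mice is needed for Dnase2b expression in the lens, had log2 signals of 10.85 and 10.80 after UVB against 10.92 and 10.98 in control. This was a log2 fold change of −0.125 (standard error 0.046, unadjusted p 0.104). Trim63, a ubiquitin ligase best known from muscle, had log2 signals of 6.57 and 6.54 after UVB against 6.38 and 6.41 in control.

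The stretches of 250 bases before the gene start are shown for the members with the largest differences, Dnase2b and Birc7, and for Lctl, in which a motif recurred. They are from RefSeq on build GRCm38.p6, 5′ to 3′ on the strand of the gene, at chr3:146615599-146615848 on the minus strand for Dnase2b, chr2:180928773-180929022 on the plus strand for Birc7 and chr9:64116897-64117146 on the plus strand for Lctl. Capitals mark matches to GAANNTTC, a core of heat shock elements, or to TGCTGA, only a part of the Maf recognition element, on either strand.
Dnase2b: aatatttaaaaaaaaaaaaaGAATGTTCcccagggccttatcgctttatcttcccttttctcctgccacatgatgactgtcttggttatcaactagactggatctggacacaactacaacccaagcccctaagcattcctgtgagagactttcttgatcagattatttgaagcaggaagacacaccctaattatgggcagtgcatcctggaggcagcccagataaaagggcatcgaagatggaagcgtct
Birc7: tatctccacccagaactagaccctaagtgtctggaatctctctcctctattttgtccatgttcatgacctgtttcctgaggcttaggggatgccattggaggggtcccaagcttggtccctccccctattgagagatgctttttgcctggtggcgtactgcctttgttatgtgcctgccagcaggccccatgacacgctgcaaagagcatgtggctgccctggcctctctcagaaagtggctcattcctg
Lctl: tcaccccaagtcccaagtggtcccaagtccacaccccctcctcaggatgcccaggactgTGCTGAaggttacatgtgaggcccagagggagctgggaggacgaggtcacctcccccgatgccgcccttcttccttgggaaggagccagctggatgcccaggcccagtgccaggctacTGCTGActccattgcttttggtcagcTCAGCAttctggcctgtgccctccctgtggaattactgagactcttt

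All 8 genes had such a window, Tdrd7 had 3 of them, and so 10 windows were searched on both strands. GAANNTTC was found in 1 of 10, that of Dnase2b, where it spans bases −230 to −223 from the start, against 6.69% of all 32851 windows. TGCTGA was found in 4 of 10, those of Lctl, Lgsn, Bfsp1 and 1 of Tdrd7, against 16.08% of all windows, and Lctl held 3 matches. TAATCC, which OTX and CRX factors bind, and TGACTCA, an AP-1 site, were found in 0 of 10, against 6.25% and 4.46% of all windows. Birc7 held none of the 4 motifs. Matches describe letters in these windows, and no motif was tested against the measured differences.

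Bfsp2, the phakinin gene, had a log2 signal of 12.60 on both UVB arrays, against 12.68 on both control arrays. The difference of −0.08 was thus the same in both experiments to the second decimal, to which the values were rounded before deposit. Its standard error of 0.027 comes from the spread that limma shares over probe sets, and the 95% interval of −0.19 to 0.029 includes 0 (unadjusted p 0.0898, adjusted p 0.371). Without the block the adjusted p of Bfsp2 was 0.0287.

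Bfsp1, the filensin gene, had log2 signals of 12.98 and 12.95 in UVB-irradiated epithelia, against 13.02 and 13.05 in control epithelia. The groups did not overlap, but they were only 0.04 apart in experiment 1 and 0.10 apart in experiment 2. The log2 fold change was −0.07 (standard error 0.034, 95% interval −0.21 to 0.065, adjusted p 0.439 from limma). Both chains of the beaded filament thus had a signal within 6% of control in the mean of the experiments, at 95.3% for Bfsp1 and 94.6% for Bfsp2.

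Among the other intermediate filament genes, Vim, which encodes vimentin, the filament of lens epithelium and young fibers, had log2 signals of 13.43 and 13.45 after UVB against 13.45 and 13.43 in control, a log2 fold change of 0. Of the genes of neuronal filaments, Ina, Nefh, Nefl and Nefm were higher in both experiments, with log2 fold changes of 0.285, 0.235, 0.45 and 0.24, while Prph, the peripherin gene, was lower in both, with one of −0.125. Of the 4 higher genes, 3 had an unadjusted p under 0.05 and none passed the adjusted threshold (adjusted p 0.357 from limma for each). Lmnb1 and Lmnb2, lamins of the nuclear envelope, had log2 fold changes of −0.095 and −0.12, and Lmna, which encodes lamins A and C, one of −0.005. Of 13 listed filament and lamin genes 4 were lower and 4 higher in both experiments (median −0.005).

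Partners of the filament and other fiber membrane proteins had log2 fold changes between −0.07 and 0.09. Cryaa and Cryab, the α-crystallin genes, had log2 fold changes of 0.045 and 0.055, and Mip, the fiber water channel aquaporin 0, one of 0.04. Sptbn1, a spectrin of the membrane skeleton, had log2 signals of 12.04 and 12.05 after UVB against 11.96 and 11.95 in control. Of 16 listed genes 14 were measured, with 1 lower and 9 higher in both experiments (median 0.04). The lower one was Lim2, a fiber membrane protein, at 13.13 and 13.08 after UVB against 13.15 and 13.20 in control.

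**Figure D2:**
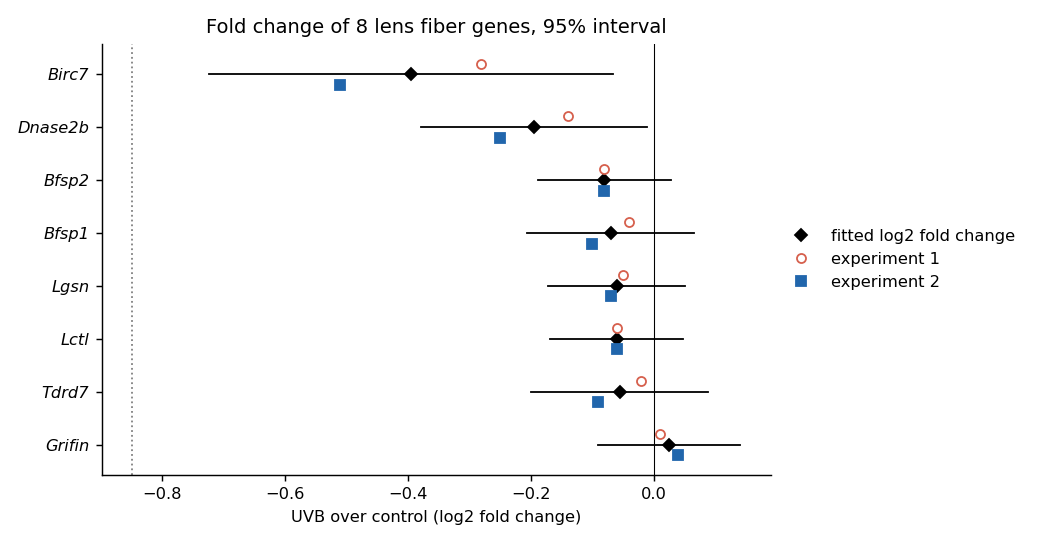
Log2 fold change of UVB over control for the 8 fiber genes. Diamonds and lines are the limma estimate and its 95% interval, open circles and filled squares are experiments 1 and 2, and the dotted line marks 1.8-fold lower. The intervals of Birc7 and Dnase2b lie below 0, those of the other 6 genes include 0, and no interval reaches the dotted line.

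Lgsn, which encodes lengsin, a fiber protein related to glutamine synthetase, had log2 signals of 13.31 and 13.30 after UVB, against 13.36 and 13.37 in control. The arrays of the groups were separate by 0.05 and 0.07. Its log2 fold change was −0.06 (standard error 0.028, 95% interval −0.17 to 0.052, adjusted p 0.435 from limma). Glul, the glutamine synthetase itself, had log2 signals of 11.46 and 11.59 after UVB against 11.32 and 11.19 in control, and so lay on the other side of 0 (log2 fold change 0.27, adjusted p 0.371 from limma).

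Lctl, a lactase-like member of the klotho family that is needed for lens sutures in mice, had a log2 signal of 12.49 on both UVB arrays, against 12.55 on both control arrays. As for Bfsp2, the experiments gave the same difference, −0.06 (95% interval −0.17 to 0.049, adjusted p 0.426 from limma). Without the block the adjusted p of Lctl was 0.0396. Lct, the intestinal lactase gene, had log2 signals of 6.33 and 6.31 after UVB against 6.56 and 6.57 in control, below the median of each array. Its log2 fold change was −0.245 (adjusted p 0.357). Kl, the klotho gene, had one of 0.04. Of the 7 listed genes of the Lgsn and Lctl families, 5 were measured, with 1 lower and 2 higher in both experiments (median 0.02).

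Grifin, a galectin-related protein of fiber cells, was the member with higher signals after UVB. They were 13.46 and 13.47 in UVB-irradiated epithelia, against 13.45 and 13.43 in control epithelia. The difference was 0.01 in experiment 1, the smallest step the rounded values can show, and 0.04 in experiment 2. The log2 fold change was 0.025 (95% interval −0.091 to 0.14, adjusted p 0.683 from limma). The highest signals on the arrays were 13.94 to 13.97, and whether differences are compressed this close to the top was not tested. Among 9 measured galectins of 10 listed, 3 were lower and 3 higher in both experiments, with log2 fold changes between −0.155 and 0.26 (median −0.03). The 2 with the smallest p were Lgals2, at −0.155, and Lgals4, an intestinal galectin, at −0.13. Both had control signals below the array medians.

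Tdrd7, a Tudor domain protein of RNA granules whose loss causes cataract in humans and mice, had log2 signals of 11.78 and 11.75 after UVB, against 11.80 and 11.84 in control. Its groups were closest to each other in experiment 1, at −0.02, and the log2 fold change was −0.055 (standard error 0.036, 95% interval −0.20 to 0.089, adjusted p 0.521 from limma). Stau1, an RNA-binding protein of the same granules, had differences of −0.17 in experiment 1 and 0 in experiment 2. Tdrd6, a germ cell relative with signals below the median of each array, had differences of −0.44 and −0.22. Tdrkh, a mitochondrial Tudor protein, had log2 signals of 8.75 and 8.76 after UVB against 8.87 and 8.85 in control. Of 17 listed Tudor and granule genes, 16 were measured, and 4 were lower and 4 higher in both experiments. Their log2 fold changes lay between −0.33 and 0.17 (median −0.01).

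The listed regulators of transcription in lens fibers and lens epithelium had log2 fold changes between −0.14 and 0.13. Maf, which activates crystallin genes, had log2 signals of 12.44 and 12.43 after UVB against 12.43 and 12.44 in control. For Prox1, needed for fiber elongation in mice, the log2 fold change was −0.005, and for Pax6, the eye master regulator, it was −0.075. Foxe3, which keeps lens epithelial cells proliferating, had one of −0.14, and Gata3, which promotes exit from the cell cycle in fibers, one of −0.11 (unadjusted p 0.0319 and 0.0488, adjusted p 0.357 from limma for both). Of 15 listed regulators all 15 were measured, 6 were lower and 4 higher in both experiments, and the median was 0.

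**Figure D3:**
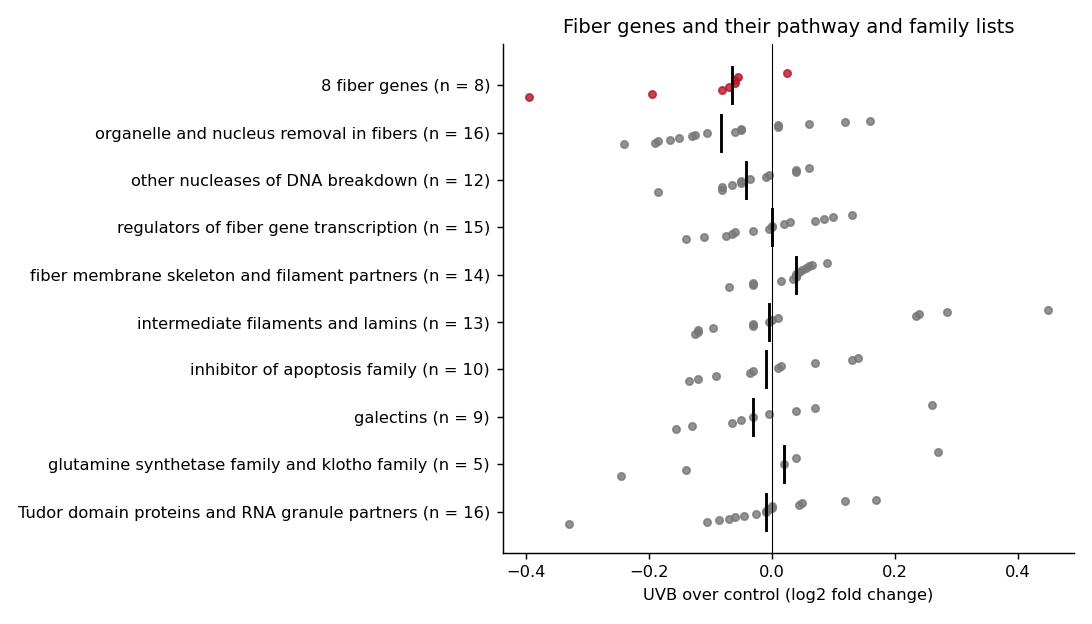
Log2 fold change of UVB over control for every measured gene of the 8 fiber genes (red) and of 9 lists of related genes (grey), with the median of each list as a vertical bar. The median of the fiber genes was −0.065, that of organelle and nucleus removal −0.0825 and that of the membrane skeleton and filament partners 0.04.

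The experiments differed in the size of the differences. In 6 of the 8 genes the difference was larger in experiment 2 than in experiment 1, in Bfsp2 and Lctl it was equal, and in none was it larger in experiment 1. After arrays were centred on their medians, Bfsp2 and Lctl had the larger difference in experiment 1 (−0.11 against −0.09 and −0.09 against −0.07 in experiment 2) and Lgsn had equal ones, whereas with quantile normalization or equal 75th percentiles all 8 had the larger one in experiment 2. Over all probe sets, 46.8% had the larger difference in experiment 2 and 46.7% in experiment 1. The difference in experiment 2 was 1.82 times that in experiment 1 for Birc7 and 1.79 times for Dnase2b. The median of the 8 genes was −0.055 in experiment 1 and −0.085 in experiment 2. With 1 array per condition in each experiment, the difference between experiments could not be tested.

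**Figure D4:**
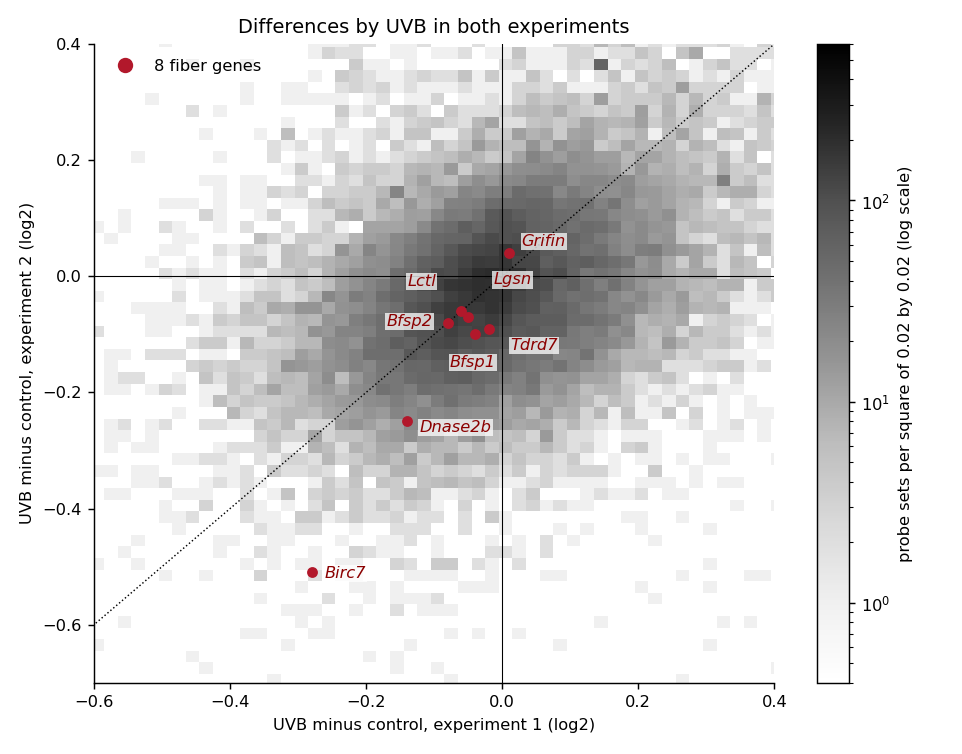
Difference of UVB minus control on the log2 scale in experiment 1 (horizontal) and experiment 2 (vertical). Red points are the 8 fiber genes, grey squares count all probe sets, 96.8% of which lie in the plotted range, and the dotted line marks equal differences. Birc7, at −0.28 and −0.51, and Dnase2b, at −0.14 and −0.25, lie away from the other 6 genes.

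Markers of other eye tissues differed between the groups. The 11 photoreceptor markers measured, of 12 listed, all had higher signals in both UVB arrays than in their controls, and their summed linear signal was 11487 and 13948 in UVB-irradiated epithelia, against 7591 and 6276 in control epithelia. Of 12 pigment epithelium markers 11 were higher, with summed signals of 6673 and 6377 against 2935 and 3047. Of 8 leukocyte markers 7 were higher, with summed signals of 965.9 and 1042 after UVB against 793.4 and 744.5 in control. The 11 cornea and conjunctiva markers summed to 4315 and 3999 after UVB against 4176 and 4473 in control. Of these, 1 was higher and 4 were lower in both experiments. Their median difference was 0.26 in experiment 1 but −0.27 in experiment 2, which the sums, led by the highest signals, do not show. The 8 measured ciliary body and iris markers summed to 7722 and 7985 after UVB against 7565 and 7351 in control. The 6 blood and vessel markers summed to 460.7 and 461.7 against 441.2 and 439.3. Above the median of both control arrays lay 9 of the 11 photoreceptor and 9 of the 12 pigment epithelium markers. Only 1 of the 8 leukocyte and 0 of the 6 blood and vessel markers did so. The lowest log2 signals were 6.90 on the photoreceptor list, 5.38 on the pigment epithelium list and 4.08 on the leukocyte list. Whether such low signals were above background was not tested. The summed signal of the 8 fiber genes was 50513 and 49987 after UVB, against 52471 and 53022 in control. The part of this RNA in the lower fiber gene signals was not tested. The 11 measured lens fiber markers summed to 94027 and 93340 after UVB against 92303 and 92941 in control, with 7 higher and 3 lower in both experiments (median log2 fold change 0.03).

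Genes with the most similar pattern over the 4 arrays were found by the distance between signals centred on the mean of each gene, among 19937 other genes. Cthrc1, a secreted collagen triple helix protein, and Spatc1 matched Dnase2b exactly (distance 0), and A330070K13Rik followed at 0.0087. For Birc7 the nearest were Gm5771 at 0.0087, and Cidea, a lipid droplet protein, and Haus7, a subunit of the augmin complex, both at 0.0166. The values are rounded to 2 decimals, and 4 arrays hold few distinct patterns. Because the summed signals of the experiments were equal within 0.02, a pattern is nearly set by the 2 differences of UVB minus control. Spatc1, A330070K13Rik, Gm5771 and Cidea had signals below the median of each array, whereas Cthrc1 and Haus7 lay above it.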

How the data were processed

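The deposited values are log2 signals per probe set, normalized between arrays by the authors with Affymetrix Expression Console and rounded to 2 decimals. How the signals were background-corrected and summarized, and by which version, is not stated in the methods or labels. The probe sets carry mouse symbols, although a human array is named in the methods. The number of arrays limits precision. A gene was given by its probe set with 1 symbol and the highest mean.

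The two-sided comparison of UVB with control was fitted in limma 3.58.1 (R 4.3.3). The experiment was the block, because the methods set right against left eyes of the same mice. No title names an experiment. Arrays with a 2 in their title were taken as experiment 2 and those without a number as experiment 1, which is an inference. Both experiments had the same summed signal within 0.02 for 100% of the probe sets, and no source describes this step. Same-numbered arrays therefore deviated from their groups in opposite directions (correlation −0.998 across probe sets), and a fit without the block counts 2 residual degrees of freedom instead of 1. Tested on simulated data, the fit returned the fold changes put in and an unadjusted p under 0.05 for most of them, but called none at an adjusted p of 0.05. This describes the changes and the spread that were simulated, and not the measured differences of the 8 genes.

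The members and lists were chosen with earlier results of these data known. Text names the members, the 2 genes of each list with the smallest p, genes tied to a member by role, and the 3 most similar genes. Bnip3, Bnip3l, Dnase1l2, Nefl, Nefm, Lmnb1, Lmnb2, Lmna, Prph, Lim2 and Kl were named after their values were seen. The experiments are described as independent, and which animals each array held is not stated. Alternatives were the fit without the block, an intensity trend, a robust prior, 3 scalings, 2 filters, the mean of probe sets, leaving out each array without the block, and other thresholds.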

Additional observations from a re-analysis of the deposited data

How the results depend on the processing

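Under 13 alternative settings the log2 fold changes of the 8 genes gave 104 values. None changed direction, but only 7 settings, the 3 scalings and the 4 that left out an array, could move a fold change. Leaving out 1 array could not reverse any of the 8 genes, because their UVB and control arrays did not overlap. Only the 3 scalings could therefore have changed a direction. In 11 settings no probe set reached an adjusted p of 0.05 in limma, so a gene without a call there is no sign of stability. The calls that differed were those of Bfsp2 and Lctl without the replicate block, so that 2 of the 8 genes were called in that fit, against 0 with the block, and 5099 probe sets against 0 (6.62% of all as higher and 11% as lower). That fit counts a residual degree of freedom which the equal experiment means had removed. With a robust prior 109 probe sets were called, against 0, and none of the 8 genes. At 1.8-fold and an unadjusted p of 0.01, 18 probe sets passed with the block and 32 without it. At an unadjusted p of 0.05, 2 of the 8 genes passed with the block and 6 without it, the last count and that of 32 being combinations chosen after the data were seen. Leaving out 1 array in turn, without the block, gave log2 fold changes of −0.455 to −0.335 for Birc7 and of −0.225 to −0.165 for Dnase2b, −0.075 to −0.035 for Tdrd7 and 0.015 to 0.035 for Grifin, and medians of the 8 genes of −0.0775 to −0.0575. Tdrd7, at −0.055 with all arrays, was at −0.035 without control replicate 2, and Grifin, at 0.025, was at 0.015. Because the summed signals of the experiments were equal within 0.02, a left-out array was nearly fixed by the remaining arrays. The ranges from leaving out an array are therefore no sign of stability. Over the other settings the median lay between −0.085, after centring on array medians, and −0.045, with equal 75th percentiles. The number of arrays, 2 in each group, limits every value.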
